A study of Homo sapiens with 12 samples.

Results

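The MET and TAM receptor tyrosine kinases and their ligands were read in 2 hepatocellular carcinoma cell lines with and without knockdown of GALNT1. The set holds 8 genes, MET, HGF, MST1R, MST1, AXL, TYRO3, MERTK and GAS6, out of 20503 named genes. The 8 genes were chosen by name, with earlier results of these data known. They are covered by 11 of the 50599 probes of a one-colour Agilent array. HGF has 2 probes, MST1 has 3 and each of the other members has 1. Where a gene had several probes, the probe with the highest mean over all arrays was read, and the others are given beside it. The cells were HA22T and PLC5, both established human liver cancer lines. Each line received either non-targeting siRNA (siControl) or a pool of siRNAs against GALNT1 (siGALNT1) at 10 nM for 48 h with a lipid transfection reagent. GALNT1 is a Golgi enzyme that starts O-glycosylation by adding GalNAc to serine or threonine. The 4 groups of line and siRNA had 3 arrays each, 12 in all. The labels do not say whether replicates came from separate cultures, so p-values measure only the spread between these arrays, which may be technical.

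MET is the receptor for hepatocyte growth factor (HGF), and MST1R (also called RON) is the receptor for macrophage-stimulating protein, which MST1 encodes. Both ligands are made as inactive precursors that serine proteases cut, and in liver they act in hepatocyte growth, motility and repair. AXL, TYRO3 and MERTK form the TAM family, whose ligands are GAS6 and protein S (PROS1). Both TAM ligands carry vitamin K-dependent carboxylated residues that bind phosphatidylserine on membranes, and the family is known for the uptake of dying cells and, for AXL, for invasive tumour cells. The arrays measure mRNA and not receptor protein, cleavage or phosphorylation.

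GAS6, AXL, MST1 and MERTK differed most between the lines, with GAS6 first and no order given among the others, since MERTK was not well above background on any HA22T array. The 250 bases before the RefSeq start of these 4 genes (GRCh38.p14) are shown so that the reader can see the sequence upstream of the genes that differed. They are written 5′ to 3′ in the direction of the gene, and capitals mark the GC box GGGCGG on either strand. The GAS6 window is chr13:113864077-113864326 on the minus strand, MERTK chr2:111898357-111898606 on the plus strand, AXL chr19:41218973-41219222 on the plus strand and MST1 chr3:49689475-49689724 on the minus strand.
GAS6: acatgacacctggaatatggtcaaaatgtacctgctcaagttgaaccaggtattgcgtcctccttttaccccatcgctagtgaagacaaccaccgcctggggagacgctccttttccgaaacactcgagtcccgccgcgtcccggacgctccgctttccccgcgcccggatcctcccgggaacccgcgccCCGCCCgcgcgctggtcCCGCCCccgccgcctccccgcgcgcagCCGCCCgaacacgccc
MERTK: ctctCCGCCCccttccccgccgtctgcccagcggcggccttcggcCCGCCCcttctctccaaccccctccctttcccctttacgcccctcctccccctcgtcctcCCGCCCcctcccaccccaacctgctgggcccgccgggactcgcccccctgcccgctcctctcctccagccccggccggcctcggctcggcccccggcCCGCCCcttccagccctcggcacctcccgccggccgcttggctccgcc
AXL: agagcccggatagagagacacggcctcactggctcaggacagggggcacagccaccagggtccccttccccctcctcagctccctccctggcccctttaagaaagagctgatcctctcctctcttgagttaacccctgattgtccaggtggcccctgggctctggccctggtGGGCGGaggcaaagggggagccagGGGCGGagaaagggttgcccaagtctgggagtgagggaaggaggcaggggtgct
MST1: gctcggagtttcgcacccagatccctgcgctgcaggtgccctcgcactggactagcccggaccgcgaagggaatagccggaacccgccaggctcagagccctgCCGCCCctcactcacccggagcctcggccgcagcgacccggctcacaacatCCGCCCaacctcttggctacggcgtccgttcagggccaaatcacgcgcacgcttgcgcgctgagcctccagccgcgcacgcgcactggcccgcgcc
All 8 members had an entry in the promoter table, and AXL and TYRO3 had a second start. The GC box was found 3 times before GAS6, 4 times before MERTK, 2 times before AXL and 2 times before MST1. Of all 35116 promoter windows of this length, 42.6% held it. The AP-1 letters TGANTCA (6.57% of all windows) and the TATA letters TATAAA (10.7%) were in none of these 4 windows. The windows differed in CG dinucleotides, with 31 before GAS6, 30 before MST1, 25 before MERTK and 4 before AXL, against a median of 11 over all windows. The GC box was thus in all 4 windows shown, whichever line the gene was higher in. Among the other members it was found 2 times before MET, 4 before MST1R and 3 before the first TYRO3 start. It was absent before HGF and before the second starts of AXL (13 CG dinucleotides) and TYRO3.

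The target of the knockdown was read first. Each value is a log2 signal minus the 75th percentile of its array, so 0 is that percentile and 1 unit is a 2-fold difference. The brighter GALNT1 probe read 1.32, 0.75 and 0.85 in HA22T siControl (replicates 1 to 3) and -3.15, -3.68 and -5.55 in HA22T siGALNT1. In PLC5 it read 0.87, 0.37 and 0.61 with siControl and -1.93, -3.47 and -3.92 with siGALNT1. Every siGALNT1 array lay below every siControl array of its line, and the differences were -5.10 ± 0.61 in HA22T and -3.72 ± 0.61 in PLC5 (log2 difference ± SE, n = 3 and 3). After limma's adjustment over all probes the adjusted p was 0.0708 in HA22T and 1.00 in PLC5 for this probe, and 0.0305 in HA22T and 1.00 in PLC5 for the dimmer GALNT1 probe. Between 36679 and 48873 spots per array were well above background. All HA22T arrays and PLC5 replicate 1 of both siRNAs were on one slide, and PLC5 replicates 2 and 3 were on another. The slide is therefore partly confounded with the line, and line differences are also given within the slide that held both lines. As a check on the lines, 8 of 9 hepatocyte markers were higher in PLC5 with each siRNA (all but AFP), among them TF (transferrin) by 9.62 and APOB by 9.55 with siControl. Over all probes tested, 11.0% were higher and 11.0% lower in PLC5 with siControl, and 13.1% and 9.79% with siGALNT1. The summed level of the 9 hepatocyte markers was 2.31 to 2.87 over the HA22T arrays and 85.7 to 168 over the PLC5 arrays on the linear scale. TF and TTR were well above background on 1 of 3 HA22T siControl arrays each. Of 4 mesenchymal markers, 2 were lower in PLC5 with siControl (VIM, vimentin, with a log2 difference of -5.54, and ZEB1, with -2.01), FN1 (fibronectin) was higher by 3.60 and CDH2 did not pass the test. With siGALNT1, 3 were lower and 1 was higher. Of the other markers tested, 0 of 3 epithelial genes were called with either siRNA. With each siRNA, 1 of 3 endothelial genes was higher and 1 of 2 fibroblast genes lower in PLC5. Of 4 leukocyte genes, 1 was lower with siControl, and 1 was higher and 1 lower with siGALNT1. The part of these differences in cell state in the results below was not tested.

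The lines differed in most members. With siControl, 6 of 8 members differed between PLC5 and HA22T at an adjusted p below 0.05 (limma, Benjamini-Hochberg over 38011 probes tested), 3 higher and 3 lower in PLC5, where 22.0% of all probes tested were called (11.0% higher and 11.0% lower). With siGALNT1, 5 of 8 were called, 2 higher and 3 lower, against 22.9% of 36741 probes (13.1% higher and 9.79% lower). The members are genes and these shares are over probes. With the probes of each gene averaged, 5393 of 17442 genes were called with siControl and 5413 of 17214 with siGALNT1. The arrays of the lines did not overlap for 6 of 8 members with siControl, where they did not overlap for 42.4% of all probes tested, and for 5 of 8 with siGALNT1, against 40.7%. GAS6, AXL and TYRO3 were higher in HA22T and MERTK and MST1 higher in PLC5 with both siRNAs, whereas MST1R was called only with siControl and MET and HGF with neither. The median absolute line difference of the 8 members was 1.97 with siControl and 2.05 with siGALNT1, and over all probes tested it was 0.51 and 0.57. Since the members were chosen with earlier results of these data known, these comparisons with all probes are descriptions. The line differences with the 2 siRNAs come from separate arrays of the same lines.

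GAS6, the ligand of all TAM receptors, showed the largest line difference of the members. In HA22T the GAS6 probe read 4.27, 3.92 and 4.54 with siControl and 3.56, 3.95 and 4.04 with siGALNT1. The PLC5 arrays read -4.59, -3.41 and -3.52 with siControl and -4.81, -3.09 and -4.09 with siGALNT1. Every HA22T array was thus above every PLC5 array, and no group came near the other line. GAS6 was 271-fold higher in HA22T with siControl (95% interval 138 to 532, limma adjusted p = 4.14e-07) and 231-fold higher with siGALNT1 (95% interval 117 to 452, adjusted p = 5.57e-07). The PLC5 signal was well above background on 2 of 3 arrays of each group, so its low level is measured near the limit of the array. Within the slide holding both lines, where each PLC5 group had 1 array, the log2 difference was -8.83 with siControl and -8.66 with siGALNT1.

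GAS6 has 2 non-coding neighbours in the RefSeq table, the divergent transcript GAS6-DT and the antisense GAS6-AS1. GAS6-DT, which starts beside GAS6 and runs the other way, read -2.40, -3.01 and -3.81 in HA22T siControl and -5.18, -6.67 and -5.51 in PLC5 siControl. Its log2 difference was -2.71 ± 0.48 (SE, n = 3 and 3, limma adjusted p = 0.00174), so both transcripts of this pair were higher in HA22T. GAS6-DT was well above background on 1 of 3 PLC5 siControl arrays, so the size of this difference is measured near the limit of the array. With siGALNT1 too few arrays were well above background for a test of GAS6-DT, and the difference was -2.38. The brighter GAS6-AS1 probe differed by 0.12 ± 0.37 with siControl (adjusted p = 0.859). Its dimmer probe was well above background on 5 of 12 arrays, and its log2 difference with siControl was -1.58 (adjusted p = 0.0990).

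AXL, the TAM receptor with the highest affinity for GAS6, was also higher in HA22T. It read 3.07 and 3.03 in HA22T siControl replicates 1 and 3, and replicate 2 has no value because its spot was flagged as non-uniform. It read 3.29, 2.85 and 3.47 in HA22T siGALNT1. The PLC5 arrays gave -0.13, 0.03 and -0.70 with siControl and 0.22, 0.32 and -0.59 with siGALNT1. The lines did not overlap, and AXL was 9.97-fold higher in HA22T with siControl (95% interval 5.69 to 17.5, adjusted p = 9.28e-05, n = 2 and 3) and 9.32-fold higher with siGALNT1 (95% interval 5.65 to 15.4, adjusted p = 5.62e-05, n = 3 and 3). The flagged spot itself read 2.91, close to its replicates. Within the slide holding both lines the log2 difference was -3.18 with siControl and -2.98 with siGALNT1.

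TYRO3, a TAM receptor that also binds protein S, followed AXL with a smaller difference. It read 0.52, 0.35 and 0.06 in HA22T siControl and 0.39, 0.45 and 0.31 in HA22T siGALNT1. PLC5 read -0.94, -1.44 and -1.18 with siControl and -0.86, -0.88 and -1.28 with siGALNT1. HA22T was above PLC5 on every array, by 2.82-fold with siControl (95% interval 1.95 to 4.08, adjusted p = 0.000926) and 2.63-fold with siGALNT1 (95% interval 1.82 to 3.80, adjusted p = 0.00158). Within the slide holding both lines the log2 difference was -1.25 with each siRNA. The pseudogene TYRO3P was well above background on 2 of 12 arrays.

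MERTK, the TAM receptor best known from phagocytes and the retina, went the other way. It read -7.78, -8.18 and -6.77 in HA22T siControl and -8.24, -5.998 and -6.68 in HA22T siGALNT1, and none of these 6 arrays was well above background. The PLC5 values were -3.50, -2.74 and -1.99 with siControl and -2.53, -1.76 and -2.08 with siGALNT1, well above background on all 6. The HA22T values only bound the level there. In the main processing, the PLC5 mean was set against the lowest signal well above background on each HA22T array, or the probe's own where higher. By these means MERTK was at least 6.99-fold higher in PLC5 with siControl and at least 7.23-fold higher with siGALNT1. The limma fit to the measured values gave adjusted p = 0.000117 and 0.000123. Bounds of this kind, here and below, compare group means and carry no interval. The measured group means differed by 4.83 and 4.86 on the log2 scale, and by 2.21 and 2.49 after normexp background correction. The normexp differences were smaller than the bounds (2.81 and 2.85 on the log2 scale), so these bounds hold for the main processing only. Within the slide holding both lines the measured differences were 4.08 and 4.45. Among the TAM receptors, AXL and TYRO3 were thus higher in HA22T together with GAS6, and MERTK was measured above background in PLC5.

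PROS1, the other TAM ligand, did not follow GAS6. Its brightest probe had a mean of 1.86 ± 0.45 in HA22T siControl and 1.85 ± 0.07 in PLC5 siControl (SD, n = 3 each). The log2 difference was -0.02 with siControl (95% interval -0.75 to 0.72, adjusted p = 0.981) and 0.09 with siGALNT1 (95% interval -0.64 to 0.83, adjusted p = 0.872). All 4 PROS1 probes were well above background on all 12 arrays, and none was called between the lines. The interval limits a PROS1 line difference in either direction to less than the differences of GAS6, AXL and TYRO3.

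In the MET family, MET itself was well above background on all 12 arrays and did not pass the test between lines. It read 2.53, 2.41 and 2.24 in HA22T siControl and 2.09, 2.05 and 2.21 in HA22T siGALNT1. In PLC5 MET read 2.36, 2.04 and 2.17 with siControl and 2.23, 2.68 and 1.95 with siGALNT1. The lines overlapped, and the log2 difference was -0.20 with siControl (95% interval -0.74 to 0.33, adjusted p = 0.617) and 0.17 with siGALNT1 (95% interval -0.37 to 0.71, adjusted p = 0.666).

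HGF, the MET ligand, which liver receives mostly from non-parenchymal cells, was dim. Its brighter probe read -3.004, -4.80 and -5.32 in HA22T siControl and -2.49, -4.95 and -6.25 in HA22T siGALNT1. In PLC5 the values were -3.49, -4.18 and -3.93 with siControl and -3.89, -5.23 and -4.08 with siGALNT1. HA22T replicate 1 was high with both siRNAs and the other HA22T arrays were lower, so the HA22T spread (SD 1.22 and 1.91) was wider than that of PLC5 (SD 0.35 and 0.73). The probe was well above background on 9 of 12 arrays, and the line difference was 0.51 with siControl (95% interval -1.36 to 2.38, adjusted p = 0.728) and 0.16 with siGALNT1 (95% interval -1.71 to 2.03, adjusted p = 0.916). The dimmer HGF probe was well above background on 5 of 12 arrays. Its line difference was -0.47 with siControl (too few arrays well above background for a test) and -0.04 with siGALNT1 (limma adjusted p = 0.972). The 2 HGF probes are annotated to different transcript variants of the gene, and which HGF transcripts each detects was not tested. A line difference of HGF within the intervals of the brighter probe was compatible with these values.

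MST1R, the receptor of macrophage-stimulating protein, was dim too. It read -4.90, -5.61 and -4.51 in HA22T siControl and -3.88, -4.74 and -4.98 in HA22T siGALNT1. PLC5 gave -3.02, -4.22 and -3.35 with siControl and -3.40, -4.58 and -3.13 with siGALNT1. The siControl groups did not overlap and the siGALNT1 groups did. MST1R was 2.78-fold higher in PLC5 with siControl (95% interval 1.34 to 5.79, adjusted p = 0.0485), and the log2 difference with siGALNT1 was 0.83 (95% interval -0.23 to 1.89, adjusted p = 0.245). The probe was well above background on 3 of 6 HA22T arrays and on all 6 PLC5 arrays. The siControl call was lost under 6 alternative settings and when any of 8 single arrays was left out, with adjusted p-values of 0.0128 to 0.163 over all settings. The 2 line differences of MST1R were not distinguishable from each other (interaction -0.65 ± 0.68, SE, adjusted p = 0.988).

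MST1, its ligand, which the liver secretes, was higher in PLC5 by all 3 probes. The read probe gave -1.31, -0.83 and -0.60 in HA22T siControl and -1.26, -1.32 and -1.18 in HA22T siGALNT1. In PLC5 it gave 1.88, 1.58 and 1.14 with siControl and 1.80, 1.64 and 0.93 with siGALNT1. No PLC5 array reached down to an HA22T array, and MST1 was 5.45-fold higher in PLC5 with siControl (95% interval 3.40 to 8.71, adjusted p = 0.000158) and 6.54-fold higher with siGALNT1 (95% interval 4.09 to 10.47, adjusted p = 7.93e-05). The other MST1 probes differed by 2.85 and 2.71 with siControl and by 2.77 and 3.25 with siGALNT1 on the log2 scale. Within the slide holding both lines the read probe differed by 2.79 and 3.05. MST1 has near-identical pseudogene copies, and the array also names 2 probes for MST1P2. The brighter MST1P2 probe was 4.87-fold higher in PLC5 with siControl (adjusted p = 0.000155) and 2.90-fold higher with siGALNT1 (adjusted p = 0.00258). The other MST1P2 probe differed by 1.00 (adjusted p = 0.0702) and 1.49 (adjusted p = 0.0115) on the log2 scale. How far MST1 and MST1P2 transcripts share signal was not tested, since probe sequences were not used here.

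**Figure D1:**
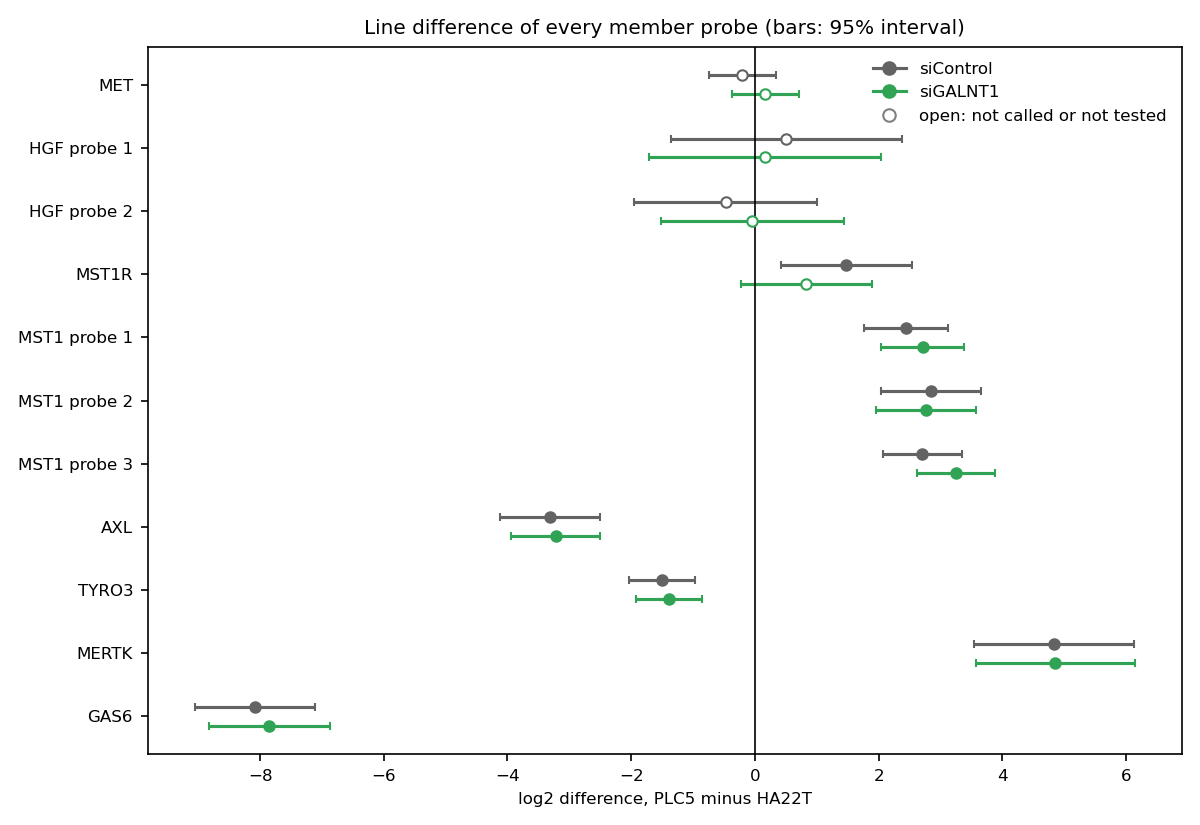
log2 difference between PLC5 and HA22T for all 11 member probes with siControl (grey) and siGALNT1 (green), with bars for the 95% interval of the limma fit and filled points where the adjusted p was below 0.05. GAS6 lies near -8, AXL near -3.3, the 3 MST1 probes between 2.45 and 3.25 and MERTK near 4.83, where the HA22T arrays were not well above background.

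The study asked what GALNT1 knockdown changes in these cells, and no member passed the test in either line. In HA22T 0 of 7 members tested and in PLC5 0 of 8 had an adjusted p below 0.05 (limma), where 0.00275% of 36327 probes and 0 of 38070 probes were called. None of the members had an unadjusted p below 0.05 either. By the methods' criterion of a fold of at least 1.5 with an unadjusted p below 0.05, 0 members passed in either line, against 2.87% of all probes tested in HA22T and 1.29% in PLC5. For MET, the HA22T difference was -0.27 (95% interval -0.81 to 0.26) and the PLC5 difference 0.10 (95% interval -0.44 to 0.64). MET was the only member whose HA22T groups did not overlap, where 12.0% of all probes tested did not overlap, and 0 of 8 members were free of overlap in PLC5, against 5.94%. An exact two-sided permutation test of it gave p = 0.1, the smallest that 3 against 3 arrays allow.

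The intervals limit what knockdown could have done to the brighter members. The AXL interval was -0.66 to 0.96 for HA22T and -0.47 to 0.97 for PLC5. The TYRO3 interval was -0.46 to 0.61 for HA22T and -0.36 to 0.71 for PLC5. GAS6 had an interval of -1.37 to 0.58 for HA22T and -1.13 to 0.81 for PLC5. The AXL and TYRO3 intervals and the GAS6 interval for HA22T exclude a change as large as that of GALNT1. In PLC5 the GAS6 signal was well above background on 2 of 3 arrays of each group. Its interval there comes from values near the limit of the array, so it cannot exclude a fall of that size. The MST1 interval was -1.02 to 0.34 for HA22T and -0.75 to 0.60 for PLC5. The members that were dim had wider intervals. By its brighter probe HGF could have differed by -2.06 to 1.68 in HA22T and by -2.41 to 1.33 in PLC5. The dimmer HGF probe went the other way, by 1.00 in PLC5 (95% interval -0.48 to 2.48). In HA22T that probe differed by 0.57, with too few arrays well above background for a test. MST1R could have differed by -0.58 to 1.53 in HA22T and by -1.23 to 0.89 in PLC5. MERTK in PLC5 differed by 0.62 (95% interval -0.66 to 1.91), and in HA22T it was not tested because no array was well above background. Each of these intervals holds the changes compatible with 3 arrays a group, and is not a limit of detection. After adjustment the test in PLC5 did not call GALNT1 itself, at -3.72, so a missing call does not exclude a change. The siGALNT1 effect did not differ between the lines for any member at an adjusted p below 0.05 (limma interaction, unadjusted p of 0.306 or more), where 0 of 39100 probes were called and 2.43% had an unadjusted p below 0.05.

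**Figure D2:**
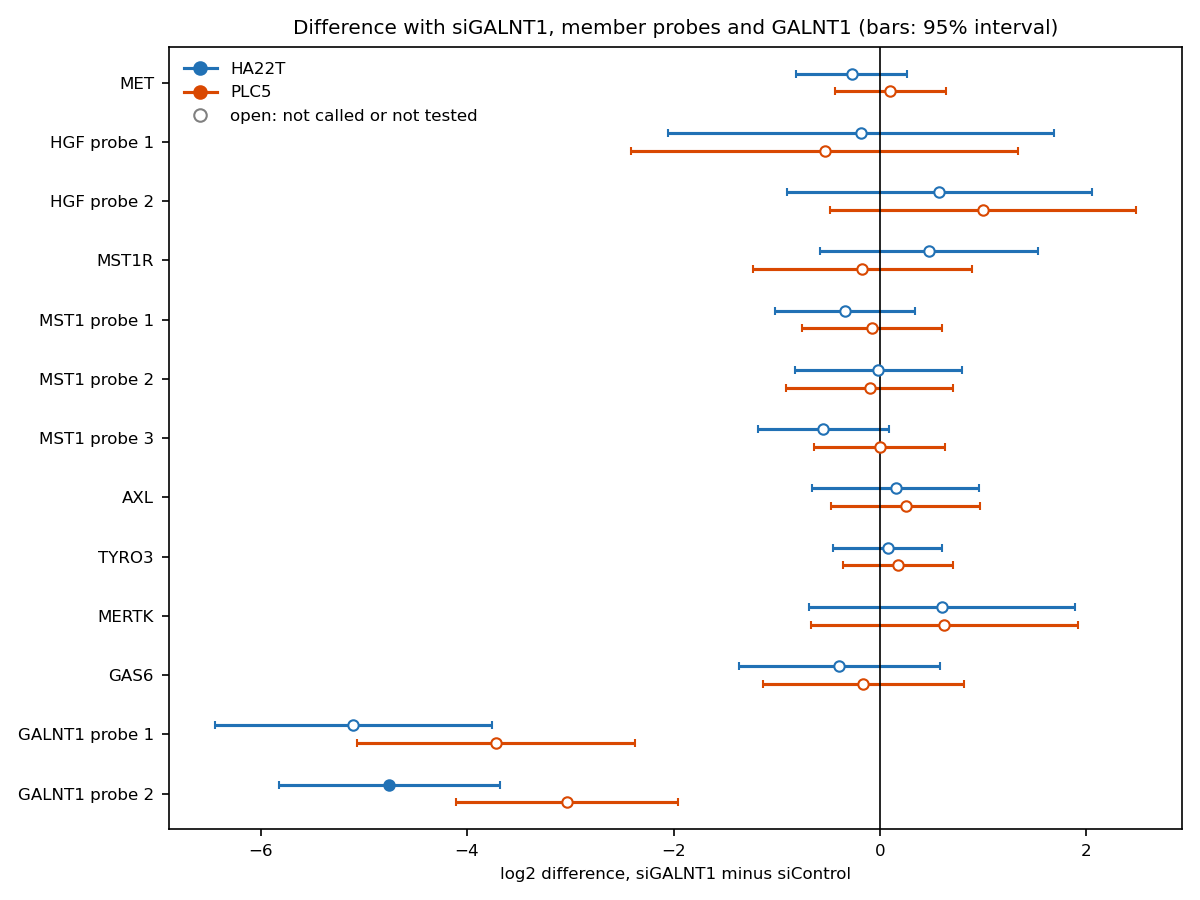
log2 difference between siGALNT1 and siControl for the 11 member probes and both GALNT1 probes in HA22T (blue) and PLC5 (orange), with bars for the 95% interval. Every member interval includes 0, while both GALNT1 probes lie between -5.10 and -3.03.

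The order of the 4 groups thus followed the line for GAS6, AXL, TYRO3, MST1 and MERTK, and what set it was not tested. For GAS6 the group means ran from 4.24 ± 0.31 (HA22T siControl) and 3.85 ± 0.26 (HA22T siGALNT1) to -3.84 ± 0.65 (PLC5 siControl) and -3.999 ± 0.86 (PLC5 siGALNT1, SD, n = 3 each). For AXL they ran from 3.20 ± 0.32 in HA22T siGALNT1 (n = 3) and 3.05 ± 0.03 in HA22T siControl (n = 2) to -0.02 ± 0.50 in PLC5 siGALNT1 and -0.27 ± 0.38 in PLC5 siControl (SD, n = 3 each). For MST1 the order was PLC5 siControl (1.53 ± 0.37), PLC5 siGALNT1 (1.46 ± 0.46), HA22T siControl (-0.91 ± 0.36) and HA22T siGALNT1 (-1.25 ± 0.07). In each case the siRNA groups of a line were neighbours that did not differ beyond their spread in the test above, and the step between lines did.

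The genes around these receptors were read from a list of 47 partner genes, of which 46 had a probe. Between the lines with siControl, 10 of 46 tested were higher and 10 lower in PLC5, or 43.5%, where the share over all probes was 22.0%. With siGALNT1, 12 of 44 tested were higher and 8 lower, or 45.5%, where it was 22.9%. With the probes of each gene averaged, 5393 of 17442 genes were called with siControl and 5413 of 17214 with siGALNT1. The median difference of the list was 0.0033 and 0.13, beside -0.04 and -0.10 over all probes tested. With siGALNT1 against siControl, 0 of 42 partner genes tested in HA22T and 0 of 46 in PLC5 were called.

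The proteases that activate pro-HGF and pro-MST1 split between the lines. HPN (hepsin), a liver protease that cuts both precursors, had a mean of -6.15 ± 0.51 in HA22T siControl and 0.99 ± 0.21 in PLC5 siControl (SD, n = 3 each). It was higher in PLC5 by 7.14 with siControl (adjusted p = 3.63e-07) and by 6.90 with siGALNT1 (adjusted p = 5.21e-07) on the log2 scale. The lowest signal well above background had a mean of -5.55 over the HA22T siControl arrays. The HPN level there is thus near the limit of the array, and the size of its difference depends on it. F12 (coagulation factor XII), which can also cut pro-HGF, was not well above background on any HA22T siControl array and was at least 25.9-fold higher in PLC5 siControl (adjusted p = 7.40e-06). PLAU (urokinase) was higher in HA22T, by 58.5-fold with siControl and 74.99-fold with siGALNT1 (adjusted p = 2.22e-07 and 1.48e-07). HGFAC, the HGF activator, differed by 0.66 with siControl (adjusted p = 0.0945) and -0.23 with siGALNT1 (adjusted p = 0.570). ST14 (matriptase) differed by -0.40 (adjusted p = 0.364) and -0.91 (adjusted p = 0.0638, 2 HA22T arrays with a value). Of the 6 activators, 2 were thus higher in PLC5, 1 was higher in HA22T and 3 did not pass the test, with either siRNA, where 11.0% of all probes tested were higher and 11.0% lower with siControl and 13.1% and 9.79% with siGALNT1.

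Their inhibitors were higher in PLC5 where they passed the test. SPINT2, a Kunitz inhibitor of hepsin, matriptase and HGFAC, was 69.0-fold higher in PLC5 with siControl and 91.8-fold higher with siGALNT1 (adjusted p = 4.85e-06 and 3.44e-06), and was well above background on 3 of 6 HA22T arrays. SERPINA5 (protein C inhibitor) was not well above background on any HA22T array and was at least 9.28-fold higher in PLC5 siControl (adjusted p = 0.0120). With siGALNT1 too few arrays were well above background for a test of SERPINA5. SPINT1 differed by 0.47 with siControl (adjusted p = 0.245) and by 0.95 with siGALNT1 (adjusted p = 0.0229).

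Membrane partners of MET split in both directions, and 5 of 6 were called with each siRNA, where 22.0% of all probes tested were called with siControl and 22.9% with siGALNT1. ITGB4, the integrin chain that signals with MET, was lower in PLC5, with log2 differences of -4.93 with siControl and -4.52 with siGALNT1. CD44, a co-receptor for MET, was lower in PLC5 too, with differences of -3.08 and -3.05, as was NRP1 (neuropilin 1), with -3.38 (2 HA22T arrays with a value) and -2.99. PLXNB1, a semaphorin receptor that associates with MET, was higher in PLC5 by 2.93 and 3.35, and SDC1 (syndecan 1) by 2.35 and 2.26. The adjusted p-values of these 5 membrane partners were 0.00251 or less. Of 9 negative regulators tested, 4 were lower and 0 higher in PLC5 with siControl, and 3 lower and 1 higher with siGALNT1 (44.4% called with each). Among them SOCS3, an inhibitor of cytokine and kinase signalling, was lower in PLC5, with differences of -3.30 and -3.09 (adjusted p = 0.000588 and 0.000979). Of 3 shedding genes, 1 was higher and 1 lower with siControl, and 1 higher and 0 lower with siGALNT1. TIMP3, an inhibitor of the proteases that shed receptors, was higher in PLC5 by 3.39 and 2.88 (adjusted p = 6.98e-05 and 0.000243). Of 13 adaptors and effectors, 2 were called with siControl (15.4%) and 4 with siGALNT1 (30.8%), near the 22.0% and 22.9% over all probes tested.

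GGCX, the carboxylase that modifies GAS6 and protein S, was higher in PLC5 by 1.71 with siControl (adjusted p = 0.00479) and by 2.25 with siGALNT1 (adjusted p = 0.000819). With siGALNT1 against siControl, 1 of 42 partner genes tested in HA22T and 0 of 46 in PLC5 passed the methods' criterion, a share no higher than the 2.87% and 1.29% over all probes tested. The gene was GGCX, with a HA22T difference of -0.82 ± 0.35 (SE, n = 3 and 3, unadjusted p = 0.0406, adjusted p = 1.00).

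**Figure D3:**
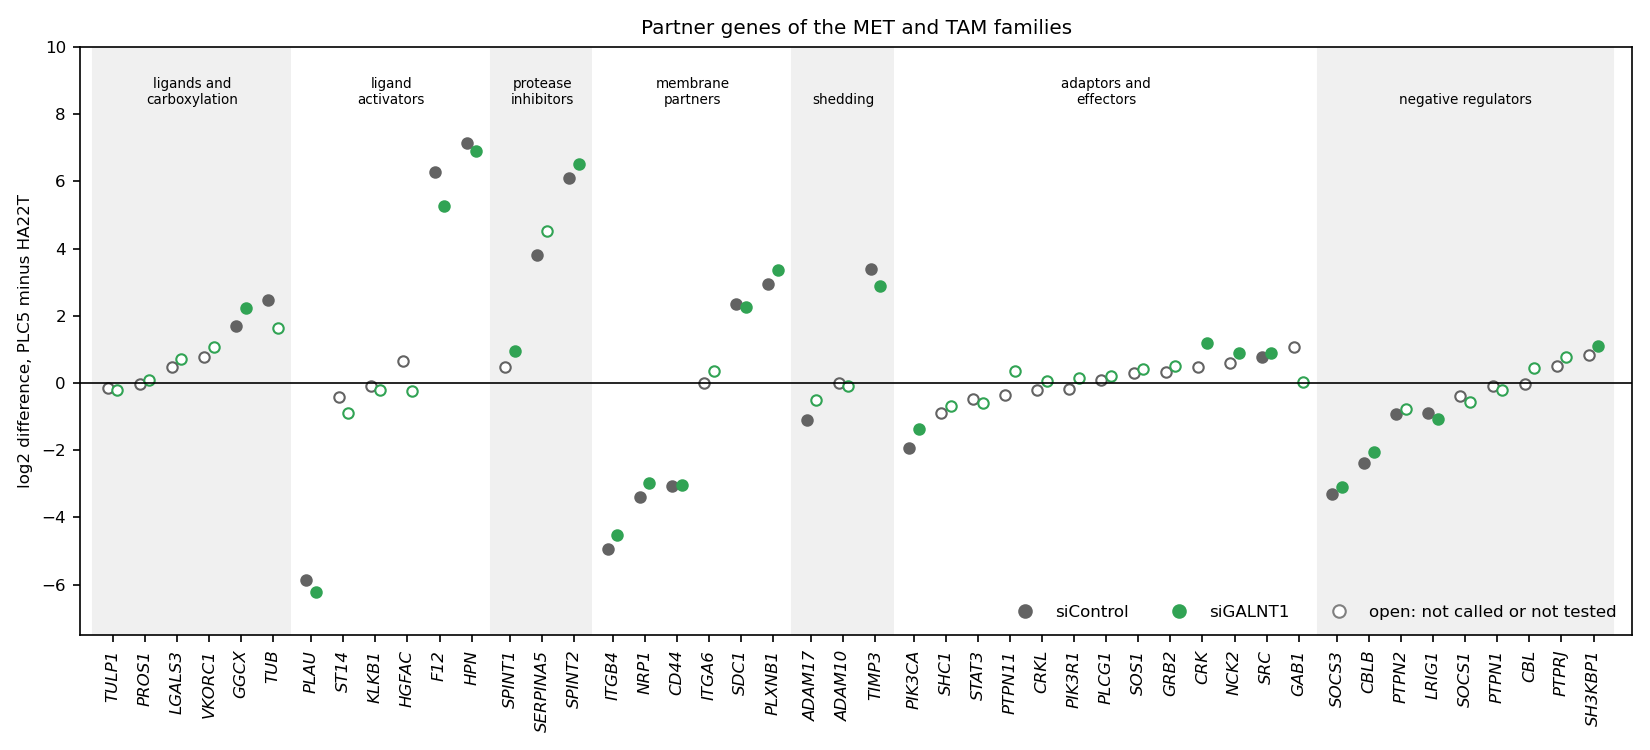
log2 difference between PLC5 and HA22T for the 46 partner genes, grouped by role, with siControl in grey and siGALNT1 in green. Filled points had an adjusted p below 0.05; HPN, F12 and SPINT2 lie highest and PLAU and ITGB4 lowest.

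The genes whose pattern over the 12 arrays was most like that of a member were taken from the 15558 named probes well above background on all arrays, for the 3 members whose read probe met that condition. For MST1 they were PLXNB1, SHFL and HDAC11 (Pearson r = 0.991, 0.990 and 0.990), and for TYRO3 they were MYBL1, CKAP2 and AFF4 (r = 0.995, 0.993 and 0.993). For MET, which did not differ between lines, they were GOLGA3, PPHLN1 and SBNO2 (r = 0.886, 0.859 and 0.844). The r values of MST1 and TYRO3 include the line difference, and after the line means were removed they were 0.803 to 0.824 for MST1 and 0.903 to 0.933 for TYRO3. These are descriptions over 12 arrays of 4 groups.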

How the data were processed

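Total RNA of the 12 samples was labelled as cDNA and hybridised by the authors to one-colour Agilent human arrays. Agilent Feature Extraction 10.5.1.1 made the deposited intensity values and the flags, per the study's methods. The deposited series table holds log2 values that the authors scaled to the 75th percentile (column medians -2.71 to -2.46), and it served as an alternative.

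The processed intensity was divided by the 75th percentile of the 58717 non-control spots of its array and taken as log2. Non-uniform spots (489 to 3633 per array) were left out, as in the study's methods, and spots of a probe were averaged. Accessions of the array design were matched to RefSeq symbols (28174 probes named). No spot was saturated. A probe was tested where at least 3 of the 6 arrays compared were well above background. One linear model over the 4 groups was fitted with limma 3.58.1 in R 4.3.3 (lmFit, eBayes), with p-values adjusted by Benjamini-Hochberg over all probes tested. Exact permutation tests, 95% intervals, tables and figures were made in Python 3.11.15. The fit was tested on simulated data.

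The members and all gene lists were chosen with earlier results of these data known. Genes named in the text were the 8 members with every probe, GALNT1, up to 4 partner genes with the largest and 4 with the smallest difference among those called without overlap in each line comparison, partner genes past the methods' criterion with siGALNT1, 6 genes always given (PROS1, SPINT1, SPINT2, ST14, HPN, HGFAC), and the 3 genes most like each member measured on all arrays. GAS6-DT, GAS6-AS1, MST1P2, TYRO3P, SDC1, TIMP3 and the GGCX line difference were added after their values were seen. Same-number correlations of deviations were 0.264 to 0.526 in HA22T and 5.76e-05 to 0.580 in PLC5. The PLC5 value of 0.580 was that of replicate 1, which was on another slide than replicates 2 and 3. Whether replicate numbers mark pairs was not tested. Normexp correction used the median spot brightness. Other alternatives were quantile and median scaling, other filters, a slide block, a replicate block and leaving out each array. The number of arrays limits the precision.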

Additional observations from a re-analysis of the deposited data

How the results depend on the processing

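GAS6, AXL, TYRO3, MST1 and MERTK kept the direction of their line difference and an adjusted p below 0.05 with both siRNAs under every setting in which they were tested and whichever single array was left out. Left-out ranges of the siControl difference were -8.30 to -7.71 for GAS6, -3.46 to -3.10 for AXL, -1.62 to -1.37 for TYRO3, 2.25 to 2.64 for MST1 and 4.46 to 5.24 for MERTK. No member passed the test for siGALNT1 in either line, or for the difference of the siGALNT1 effect between lines, under any setting. The number of members called with siControl was 5 to 6 when an array was left out (5 with siGALNT1 throughout). It was 2 with siControl and 3 with siGALNT1 where only probes well above background on all arrays compared were tested, since fewer members were then tested. Under that filter 13 partner genes were called with siControl, and 5233 probes with siGALNT1. The methods' t-test with Benjamini-Hochberg adjustment called 13 partner genes and 3967 probes with siGALNT1, against 20 and 8407. Partner genes called ranged from 17 to 20 with siControl and from 16 to 21 with siGALNT1 when an array was left out, and probes called from 6138 to 8700 and from 5979 to 8695.

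The MST1R siControl difference lost its call with normexp (0.75, adjusted p = 0.0895), quantile scaling (1.38, 0.0571), median scaling (1.37, 0.0644), the deposited table (1.44, 0.0539), no filter on dim probes (adjusted p = 0.0591) and the methods' t-test (adjusted p = 0.130). It also lost it without HA22T siControl replicate 1, 2 or 3, PLC5 siControl replicate 1 or 3, HA22T siGALNT1 replicate 2 or 3, or PLC5 siGALNT1 replicate 1, over a left-out range of 1.17 to 1.82. Within the slide that held both lines it was 1.99.

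Differences that did not pass the test could change sign. The HGF difference with siGALNT1 in HA22T became 0.25 with normexp, 0.0086 with quantile scaling and 0.19 as the mean of both probes (left-out range -1.22 to 0.66). In PLC5 the mean of both HGF probes gave 0.23, and the interaction became 0.038. The HGF line difference with siGALNT1 became -0.31 with normexp and -0.15 with quantile scaling (left-out range -0.68 to 1.20). The GAS6 difference with siGALNT1 in PLC5 became 0.019 with normexp. Left-out ranges that crossed 0 were -0.052 to 0.18 for TYRO3 with siGALNT1 in HA22T, and in PLC5 -0.10 to 0.27 for MET, -0.52 to 0.27 for MST1R, -0.27 to 0.19 for MST1 and -0.61 to 0.25 for GAS6. For the line difference with siGALNT1, MET ranged from -0.028 to 0.34. For the interaction the ranges were -1.19 to 0.69 for HGF, -0.12 to 0.38 for AXL, -0.026 to 0.24 for TYRO3, -0.61 to 0.51 for MERTK and -0.22 to 0.64 for GAS6. The cause of these changes was not tested.

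With the replicate number as a block, the calls of all members were unchanged, the AXL interaction turned from 0.096 to -0.082, and the 1 probe called with siGALNT1 in HA22T was called no more (0 probes). That count was also 0 with the slide as a block, with each line fitted alone and with the strict filter, and 3 with normexp, with eBayes trend and with the prior from tested probes (0 to 2 with an array left out). In PLC5 it was 2 with normexp. Median scaling moved the median siControl line difference of all probes by -0.11, and quantile scaling moved that with siGALNT1 by -0.12. Dim probes limit HGF, MST1R, MERTK in HA22T and GAS6 in PLC5.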
